A study of Mus musculus with 14 samples.

Results

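The genes described here are 40 targets or regulators of the transcription factor NF-κB, grouped by role into feedback inhibitors, signalling and survival proteins, inflammatory enzymes, cytokines and receptors. They were chosen by name as known targets and regulators of the pathway, without chemokines, adhesion molecules or the NF-κB subunits themselves. The choice was made with earlier results of these data known. Of the 40 genes, 38 had a transcript cluster with a single gene name among the 19938 genes tested, and Traf3 and Ripk2 were not analysed here. Expression was measured on 14 Affymetrix Mouse Gene 1.0 ST arrays of whole pancreatic islets from untreated mice aged 11 weeks on a mixed C57BL/6 and NMRI background (1:1). The 5 arrays of control mice carry no further genotype in the labels. The 4 arrays of Pdx-1+/- mice carry the driver allele Pdx-1-tTA, which leaves 1 working copy of Pdx-1. The 5 arrays of IKK2-CApdx-1 mice (here IKK2-CA) carry the same driver and through it a constitutively active IKK2 in β-cells, and these mice were diabetic. Active IKK2 and diabetes therefore cannot be told apart, and the islets hold endocrine, vascular, stromal and immune cells besides the β-cells in which the driver acts. Nothing in the labels states that arrays come from different animals, so the tests measure the spread between arrays, which may be technical. In bulk islets more cells of a type and more RNA per cell cannot be told apart.

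NF-κB waits in the cytoplasm bound to inhibitor proteins until the IKK complex, with IKK2 as its main catalytic subunit in inflammatory signalling, marks those inhibitors for destruction. The freed factor binds κB sites in promoters and enhancers and switches on cytokines, survival proteins and its own inhibitors, so that the response normally shuts itself down. In islets the pathway is best known from β-cells exposed to interleukin 1 and interferon γ, where it drives nitric oxide production, and from resident and incoming macrophages and dendritic cells, which make many of the same cytokines.

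Values are log2 RMA signals, so a difference of 1 is a 2-fold change. They compare arrays for the same gene and not genes with each other. Differences come from 1 limma fit over all 14 arrays, SE is the moderated standard error, and "rose" or "fell" means an adjusted p under 0.05 over all 19938 genes of a comparison. Where 2 differences are given for a gene, the first is from Pdx-1+/- and the second from control islets. The median signal of an array lay between 6.45 and 6.55 over these genes, and Csf2, Traf1, Tnip3, Il23a and Il12b were among those below it in every group (group means 4.19 to 6.13). Pdx1 read 8.23 ± 0.39 (SD, n = 5) in control, 7.14 ± 0.21 (SD, n = 4) in Pdx-1+/- and 6.67 ± 0.55 (SD, n = 5) in IKK2-CA islets. Ikbkb, which encodes IKK2, read 7.43 ± 0.09 (SD, n = 5), 7.41 ± 0.18 (SD, n = 4) and 7.68 ± 0.22 (SD, n = 5). No source used here states whether the probes read the driver allele or the transgene. Ins2, the insulin gene that marks β-cells, lay near the top of every array's range (12.31 to 12.68), although other β-cell markers were lower in IKK2-CA islets. So did the mean of the acinar cell genes, which mark exocrine cells (8 measured of 10 listed, mean level 11.92 to 12.63).

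Markers of other tissues set 3 arrays apart. The mean of 10 intestinal markers, taken as deviation from each gene's average signal, was 3.29 on Pdx-1+/- array 4 and 1.44 on control array 3 against -0.55 to -0.25 on the other arrays. The mean of 8 adipocyte markers was 2.33 on IKK2-CA array 5 against -0.58 to 0.39 elsewhere. Leaving out Pdx-1+/- array 4 and IKK2-CA array 5 lowered many of the module's differences from Pdx-1+/- islets, and these values are given where the direction turned or the value moved most.

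The module lay higher in IKK2-CA islets than in either other group, but few of its genes passed the test. Against control islets 4 of 38 rose, namely the feedback genes Tnip1 and Tnip3, the cytokine subunit gene Il12b and the interferon γ receptor gene Ifngr2, and 0 fell. Of all genes 0.682% rose and 1.56% fell in this comparison (2.25% together). Against Pdx-1+/- islets 0 of 38 passed (limma), where 0.0752% of all genes rose and 0% fell. At an unadjusted p under 0.05, 16 were higher and 1 lower than in Pdx-1+/- islets (4.32% and 2.69% of all genes), and 15 were higher and 0 lower than in control islets (6.2% and 9.47% of all genes). At an unadjusted p under 0.01 the counts were 6 higher and 0 lower (1.69% and 0.406%) and 7 higher and 0 lower (2.46% and 4.3%). The median difference of the 38 genes was 0.39 against Pdx-1+/- and 0.38 against control islets, beside -0.01 for all genes in both. The difference was above 0 for 34 and 31 of the 38 genes, and for 45% and 46.4% of all genes. Because the genes were chosen with earlier results known, these counts and medians are description and the module was not tested as a set. When Pdx-1+/- array 4 and IKK2-CA array 5 were left out, the medians were 0.14 and 0.21 and the counts above 0 were 27 and 29. The 4 calls against control changed when single arrays were left out. Of the 38 genes 0 passed without control array 3, 4 or 5 or IKK2-CA array 3. In those settings the calls over all genes also fell, from 448 to 120, 152, 190 and 178. Of the 38 genes 1 passed without control array 1, 2 without IKK2-CA array 2 and 7 without IKK2-CA array 4. Both comparisons use the same 5 IKK2-CA arrays, so they are not independent.

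In Pdx-1+/- islets, which carry the driver without the transgene, 0 of 38 genes passed against control islets (limma), and 0 had an unadjusted p under 0.05, where 1.23% of all genes were higher and 3.49% lower at that level (0% rose and 0.0953% fell). At an unadjusted p under 0.01 the counts were again 0, beside 0.201% and 1.07% of all genes. The median difference was -0.03, with 15 genes above 0 (48.2% of all genes were) and 23 below, and the differences ranged from -0.39 (Tnfaip2) to 0.34 (Nfkbid).

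**Figure D1:**
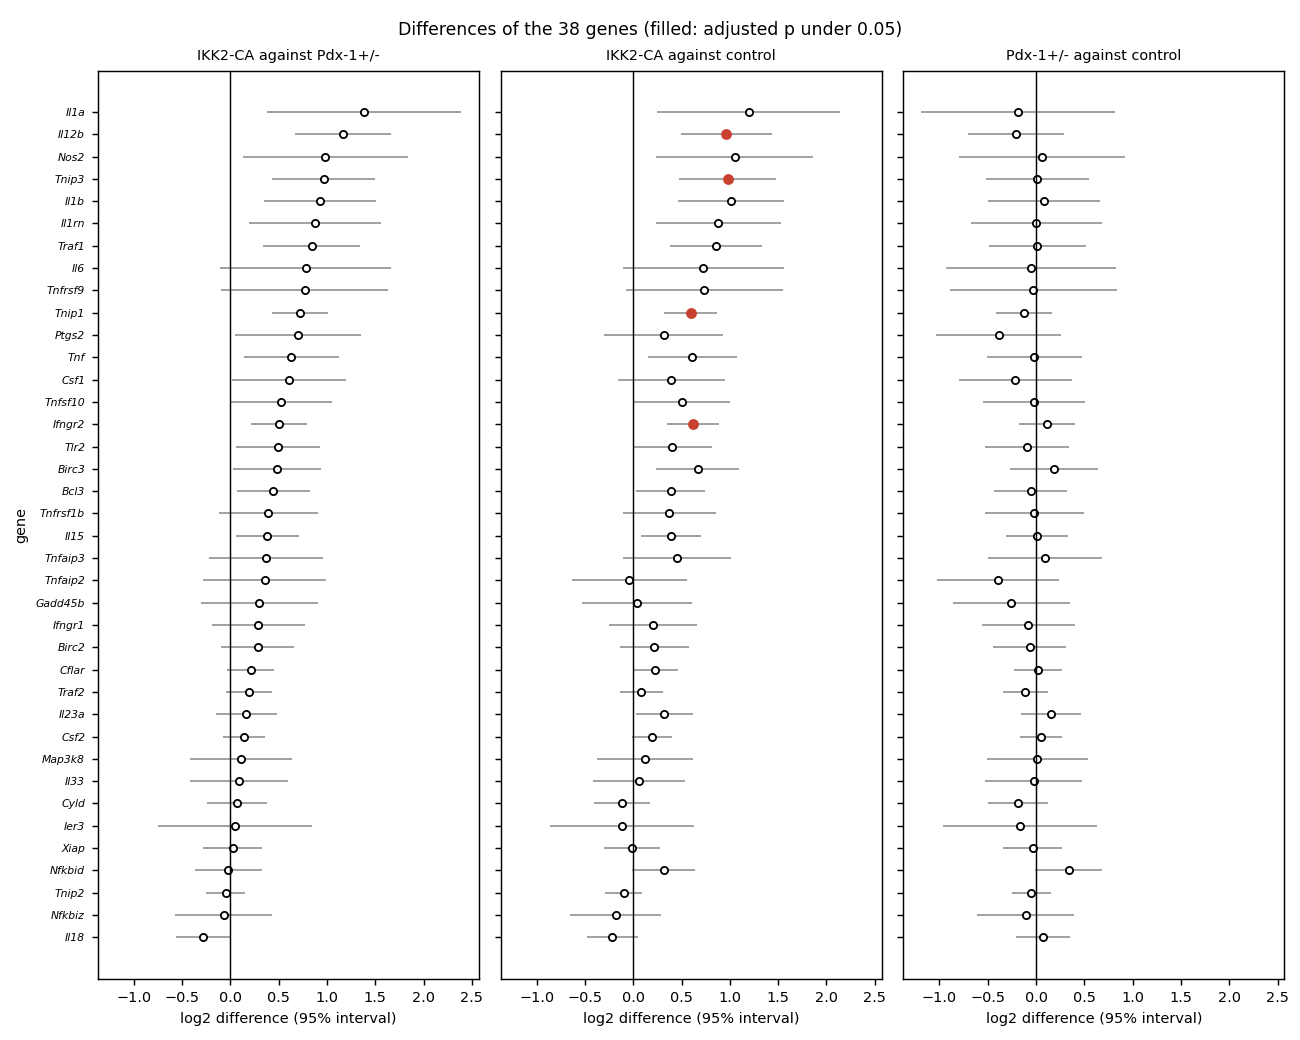
Log2 difference (x axis) of each of the 38 genes (y axis, ordered by the first panel) with its 95% interval, for the comparisons named above the panels. Filled points have an adjusted p under 0.05: Tnip1, Tnip3, Il12b and Ifngr2 in the middle panel, and 0 in the outer panels.

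The mean of the 38 genes was highest on IKK2-CA array 5 (0.82 log2 units above average) and next on IKK2-CA array 3 (0.29). IKK2-CA arrays 1 and 2 were at 0.08 and 0.15. IKK2-CA array 4 (mean level 7.39) lay below control arrays 1, 2 and 4 (7.44, 7.42 and 7.47). Array 5 gave the highest of the 5 IKK2-CA values for 30 of 38 genes and lay above the 9 arrays of the other groups for 30 genes. The whole group lay above those 9 arrays for 5 genes, Tnip1, Tnip3, Traf1, Il1rn and Ifngr2. Of all genes 1.72% lay wholly above the Pdx-1+/- arrays and 1.86% wholly above the control arrays. The shares of all genes for array 5 alone and for the 9 arrays together were not counted, so these counts are description only.

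**Figure D2:**
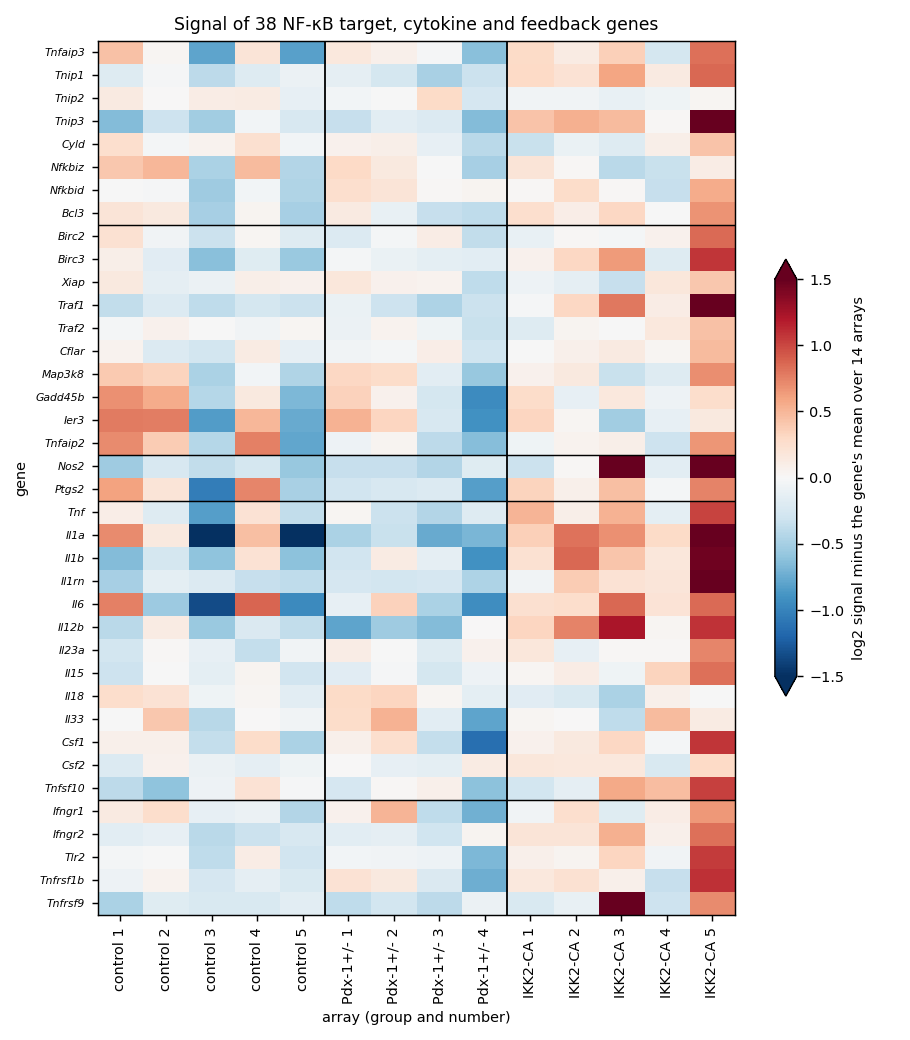
Each of the 38 genes (rows, split by role into feedback, signalling and survival, enzymes, cytokines and receptors) on the 14 arrays (columns), as log2 signal minus the gene's mean, with colours saturating at 1.5 on either side. IKK2-CA array 5 is above its gene means for most rows, and control arrays 3 and 5 are below theirs for many inducible genes such as Il6, Il1a and Ier3.

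Among the feedback inhibitors, Tnip1 and Tnip3 rose against control islets while Tnip2 did not pass. Their products, ABIN-1, ABIN-2 and ABIN-3, bind ubiquitin chains or the deubiquitinase A20 and restrain signalling to IKK. Tnip1 (transcript cluster 10385941) read 6.56, 6.74, 6.37, 6.57 and 6.66 on control arrays 1 to 5. It read 6.62, 6.49, 6.28 and 6.43 on Pdx-1+/- arrays 1 to 4. On IKK2-CA arrays 1 to 5 it read 7.06, 6.97, 7.34, 6.89 and 7.62, above each of the other 9 arrays. The rise was 1.51-fold against control (log2 0.60, SE 0.13, adjusted p = 0.0267). Against Pdx-1+/- islets it was at log2 0.72 (SE 0.14, adjusted p = 0.0714), the smallest adjusted p of the 38 genes there, and without IKK2-CA array 5 it passed that comparison (log2 0.61, adjusted p = 0.0327). Without the intestinal and adipocyte arrays of those groups it was at log2 0.61 and missed again (adjusted p = 0.0821).

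Tnip3 (10538791) read 4.48 to 5.08 in control and 4.48 to 4.97 in Pdx-1+/- islets, with control arrays 1 to 5 at 4.48, 4.82, 4.61, 5.08 and 4.88 and Pdx-1+/- arrays 1 to 4 at 4.78, 4.97, 4.92 and 4.48. IKK2-CA arrays 1 to 5 read 5.55, 5.66, 5.60, 5.14 and 6.80, so the groups did not overlap but array 4 lay just above the highest control. The rise against control was 1.97-fold (log2 0.98, SE 0.24, adjusted p = 0.0448), and 1.64-fold without IKK2-CA array 5 (log2 0.72, adjusted p = 0.0254). Against Pdx-1+/- islets Tnip3 was at log2 0.96 (SE 0.25, adjusted p = 0.264). Tnip2 was at log2 -0.05 (SE 0.09) and -0.10 (SE 0.09) in the 2 comparisons, with intervals of -0.25 to 0.15 and -0.29 to 0.09.

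The stretches before the RefSeq start of the genes that rose were read for κB sites, because these are where NF-κB binds. The κB consensus decamer was searched on both strands in the 250 bases upstream of each start, in the RefSeq promoters of build GRCm38.p6. The pattern was GGGRNNYYCC, where R is A or G, Y is C or T and N is any base. Sites that depart from it were not counted. Of the 40 genes, 34 had a promoter entry, and 13 of these (38.2%) held a match in at least 1 of their promoters, beside 2225 of 27018 genes in all (8.24%). Of all 32841 promoters 7.25% held one. The list was chosen as known targets and regulators of NF-κB, so its share of matches reflects that choice and is description only. Of the 4 genes that rose, Tnip1, Tnip3 and Ifngr2 held a match and Il12b held none to this pattern, which leaves other forms of the site unread. Tnfaip3, Cyld, Il6, Nfkbid, Ier3, Tnfaip2, Csf1, Tlr2 and Tnfrsf9 held one too and did not pass in any comparison. Traf3 also held one and was not analysed. The windows of Tnip1, Tnip3, Ifngr2, Tnfaip3, Cyld and Il6 are shown to place the site in genes that rose and in some that did not. The window of Tnip1 lies on the minus strand at chr11:54962941-54963190, Tnip3 on the plus strand at chr6:65590148-65590397 and Ifngr2 on the plus strand at chr16:91546809-91547058. That of Tnfaip3, the first of its 2 promoters, lies on the minus strand at chr10:19015411-19015660, Cyld on the plus strand at chr8:88696778-88697027 and Il6 on the plus strand at chr5:30012864-30013113. Each runs 5′ to 3′ up to the base before the start, with capitals on the κB matches.
Tnip1: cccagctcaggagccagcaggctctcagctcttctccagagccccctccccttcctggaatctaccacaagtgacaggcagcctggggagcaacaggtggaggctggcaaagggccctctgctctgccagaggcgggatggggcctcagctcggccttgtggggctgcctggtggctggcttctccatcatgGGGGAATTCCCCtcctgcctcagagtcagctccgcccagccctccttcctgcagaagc
Tnip3: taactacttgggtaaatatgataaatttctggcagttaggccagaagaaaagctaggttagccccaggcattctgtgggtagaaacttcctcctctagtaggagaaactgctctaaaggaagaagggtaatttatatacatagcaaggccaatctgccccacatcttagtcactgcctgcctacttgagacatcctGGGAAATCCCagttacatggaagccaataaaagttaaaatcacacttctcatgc
Ifngr2: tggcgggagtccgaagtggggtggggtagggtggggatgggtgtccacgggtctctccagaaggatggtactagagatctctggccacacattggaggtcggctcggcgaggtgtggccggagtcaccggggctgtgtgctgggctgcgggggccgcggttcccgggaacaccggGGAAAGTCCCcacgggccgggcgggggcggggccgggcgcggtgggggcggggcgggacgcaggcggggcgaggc
Tnfaip3: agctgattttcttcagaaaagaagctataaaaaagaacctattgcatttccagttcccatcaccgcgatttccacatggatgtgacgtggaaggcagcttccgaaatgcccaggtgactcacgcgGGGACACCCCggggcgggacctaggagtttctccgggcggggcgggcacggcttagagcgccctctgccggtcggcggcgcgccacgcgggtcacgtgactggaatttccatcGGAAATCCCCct
Cyld: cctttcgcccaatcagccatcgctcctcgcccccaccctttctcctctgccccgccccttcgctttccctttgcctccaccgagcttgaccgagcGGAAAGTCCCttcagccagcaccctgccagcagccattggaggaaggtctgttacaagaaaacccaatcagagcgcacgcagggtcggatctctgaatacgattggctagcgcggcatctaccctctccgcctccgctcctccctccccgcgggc
Il6: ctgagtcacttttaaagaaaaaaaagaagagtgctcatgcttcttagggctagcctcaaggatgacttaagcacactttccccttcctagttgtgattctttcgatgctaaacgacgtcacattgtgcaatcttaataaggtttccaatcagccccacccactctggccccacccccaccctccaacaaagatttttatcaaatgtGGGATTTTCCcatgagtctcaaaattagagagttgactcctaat
In Tnfaip3 the matches lay at bases -125 to -116 and -12 to -3 from the start. In Tnip1 there were 3 overlapping matches, the first beginning at base -58 and the last ending at -47. In Tnip3 the match GGGAAATCCC lay at -54 to -45, in Il6 GGGATTTTCC at -44 to -35, and in Ifngr2 GGGACTTTCC, on the other strand, at -75 to -66. Cyld held the same letters as Ifngr2, also on the other strand, at -155 to -146. Such a match is a description of the letters and not of binding.

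Among the other feedback genes of the module, Tnfaip3 and Nfkbiz did not pass. Tnfaip3 (10368144) encodes A20, the ubiquitin-editing enzyme that shuts IKK down. It read 9.64, 9.22, 8.40, 9.39 and 8.37 on control arrays, and 9.35, 9.27, 9.18 and 8.57 on Pdx-1+/- arrays. It read 9.48, 9.31, 9.55, 8.93 and 10.02 on IKK2-CA arrays, overlapping both. Its difference was log2 0.37 (SE 0.28, adjusted p = 0.89) from Pdx-1+/- and 0.46 (SE 0.26, adjusted p = 0.446) from control islets, and 0.05 from Pdx-1+/- when Pdx-1+/- array 4 and IKK2-CA array 5 were left out. Nfkbiz (10439936) encodes IκBζ, a nuclear co-factor for a second wave of targets such as Il6. It read 10.13, 10.23, 9.25, 10.20 and 9.29 on control arrays and 10.03, 9.87, 9.72 and 9.23 on Pdx-1+/- arrays. On IKK2-CA arrays it read 9.91, 9.74, 9.32, 9.39 and 9.84, so the control arrays reached both below and above all of them. Its difference was log2 -0.07 (interval -0.57 to 0.43) and -0.18 (interval -0.65 to 0.29).

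Bcl3, an atypical IκB protein that joins the p50 and p52 subunits in the nucleus, was at log2 0.45 (SE 0.18, adjusted p = 0.624) from Pdx-1+/- and 0.39 (SE 0.17, adjusted p = 0.264) from control islets. Nfkbid, or IκBNS, was at log2 -0.02 (SE 0.16) from Pdx-1+/- and 0.32 (SE 0.15, adjusted p = 0.341) from control islets. It was the 1 gene of 38 whose Pdx-1+/- arrays (7.71 to 7.94) lay wholly above the controls (7.16 to 7.68), where 0.481% of all genes did so, and 0 genes lay wholly below (1.4%). That difference did not pass (log2 0.34, SE 0.16, adjusted p = 0.999). Cyld, a deubiquitinase that removes the chains IKK needs, was at log2 0.07 (SE 0.14) and -0.12 (SE 0.14).

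Of the 10 measured signalling and survival genes all lay above Pdx-1+/- and 7 above control islets, and 0 passed. When Pdx-1+/- array 4 and IKK2-CA array 5 were left out, 7 lay above Pdx-1+/- and 5 above control islets, with Ier3 at log2 -0.27, Map3k8 at -0.22 and Xiap at -0.19 from Pdx-1+/- islets. Traf1, an adaptor of tumour necrosis factor receptors that NF-κB induces, came nearest (10481949). It read 4.45, 4.61, 4.44, 4.56 and 4.49 on control arrays and 4.72, 4.52, 4.36 and 4.50 on Pdx-1+/- arrays. IKK2-CA arrays read 4.81, 5.13, 5.62, 4.93 and 6.35, all above the other groups but spread over a wider range than both together. The difference was log2 0.84 (SE 0.23, adjusted p = 0.322) from Pdx-1+/- and 0.86 (SE 0.22, adjusted p = 0.0613) from control islets. Without IKK2-CA array 5 the difference from control was smaller and passed (log2 0.61, SE 0.14, adjusted p = 0.0413).

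Birc3, which encodes the ubiquitin ligase cIAP2 that keeps cells alive after tumour necrosis factor, read 8.50, 8.24, 7.78, 8.22 and 7.85 on control arrays (10590801). It read 8.38, 8.31, 8.26 and 8.26 on Pdx-1+/- arrays, the tightest group, and 8.47, 8.72, 9.04, 8.21 and 9.48 on IKK2-CA arrays. IKK2-CA array 4 lay below every Pdx-1+/- array. The difference was log2 0.48 (SE 0.21, adjusted p = 0.672) and 0.67 (SE 0.20, adjusted p = 0.102). The other inhibitors of apoptosis differed less. Birc2, encoding cIAP1, was at log2 0.28 (SE 0.18) and 0.22 (SE 0.17), and at 0.03 and 0.05 when Pdx-1+/- array 4 and IKK2-CA array 5 were left out, and Xiap, which blocks caspases, was at log2 0.03 (SE 0.14) and -0.01 (SE 0.13).

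Traf2, the adaptor that carries cIAP1 and cIAP2 to receptors, was at log2 0.20 (SE 0.11) from Pdx-1+/- and 0.09 (SE 0.10) from control islets. Cflar, the caspase-8 inhibitor c-FLIP, was at log2 0.21 (SE 0.12) and 0.23 (SE 0.11) at its brightest transcript cluster. At its other 2 clusters the difference was log2 0.04 and 0.00035 from Pdx-1+/- islets, and 0.16 and -0.08 from control islets. Map3k8, the kinase Tpl2 that links the pathway to ERK, was at log2 0.11 (SE 0.25) and 0.12 (SE 0.23). Gadd45b, a stress protein that restrains JNK, was at log2 0.30 (SE 0.28) and 0.04 (SE 0.27), Ier3, an early response gene, at 0.05 (SE 0.37) and -0.12 (SE 0.35), and Tnfaip2 at 0.35 (SE 0.30) and -0.04 (SE 0.28). With Pdx-1+/- array 4 and IKK2-CA array 5 left out, Gadd45b was at 0.01, Tnfaip2 at 0.09, Traf2 at 0.03 and Cflar at 0.05 from Pdx-1+/- islets. The intervals of Ier3 spanned -0.74 to 0.84 and -0.86 to 0.63.

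**Figure D3:**
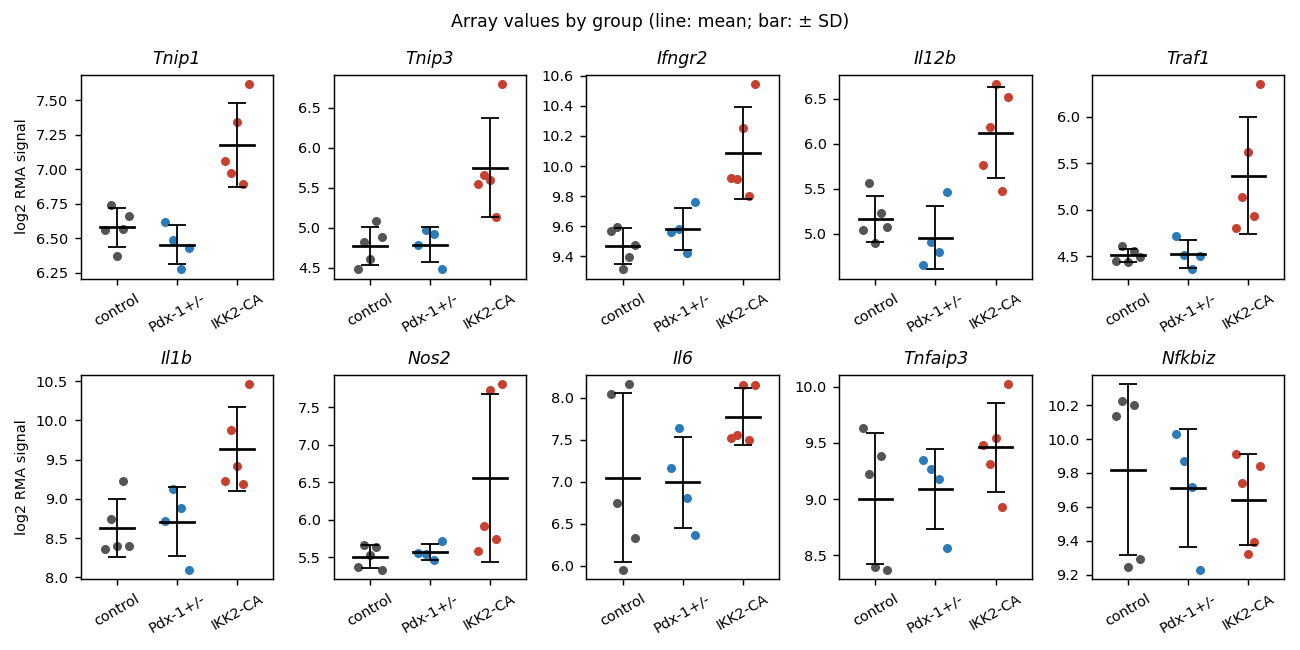
Log2 RMA signal (y axis, its own range in each panel) of 10 genes by group (x axis), with a point per array, a line at the group mean and a bar of ± SD (n = 5 control, 4 Pdx-1+/- and 5 IKK2-CA arrays). Tnip1, Tnip3, Ifngr2 and Traf1 show all IKK2-CA arrays above the other groups, Nos2 shows 2 IKK2-CA arrays near 7.8 and 3 between 5.58 and 5.92, and Il6, Tnfaip3 and Nfkbiz overlap across groups.

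The 2 inflammatory enzymes did not pass and varied between IKK2-CA arrays. Nos2 (10379228), the inducible nitric oxide synthase, read 5.37, 5.67, 5.53, 5.64 and 5.34 on control arrays and 5.55, 5.55, 5.47 and 5.72 on Pdx-1+/- arrays. IKK2-CA arrays read 5.58, 5.92, 7.73, 5.74 and 7.81, so arrays 3 and 5 stood far above every other array, while arrays 1 and 4 overlapped or adjoined the other groups, which reached 5.72. The mean difference was log2 0.98 (SE 0.40, adjusted p = 0.643) and 1.05 (SE 0.38, adjusted p = 0.176). Ptgs2, or COX-2, which starts prostaglandin synthesis, read 9.65 to 10.41 in IKK2-CA islets, above all Pdx-1+/- arrays (8.84 to 9.47) and overlapping the controls (8.63 to 10.40). Its difference was log2 0.70 (SE 0.30, adjusted p = 0.663) from Pdx-1+/- and 0.32 (SE 0.29, adjusted p = 0.684) from control islets.

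Of the 13 cytokine genes, 12 lay above both other groups and 1, Il12b, rose against control islets. When Pdx-1+/- array 4 and IKK2-CA array 5 were left out, 11 lay above Pdx-1+/- islets, as Il33 turned to log2 -0.18. Il12b (10375331) encodes the p40 chain shared by interleukins 12 and 23 and is a product of activated dendritic cells and macrophages. It read 5.04, 5.57, 4.89, 5.23 and 5.08 on control arrays, and 4.65, 4.91, 4.80 and 5.46 on Pdx-1+/- arrays. IKK2-CA arrays read 5.77, 6.19, 6.67, 5.48 and 6.53, with array 4 below the highest control. The rise against control was 1.95-fold (log2 0.96, SE 0.22, adjusted p = 0.0362). It was 2.25-fold against Pdx-1+/- islets and missed the threshold (log2 1.17, SE 0.23, adjusted p = 0.0882), and passed when Pdx-1+/- array 4 and IKK2-CA array 5 were left out (log2 1.24, adjusted p = 0.0472). Without IKK2-CA array 5 alone it did not pass against control (log2 0.86, adjusted p = 0.0824). Il23a, the partner chain that makes interleukin 23, was at log2 0.17 (SE 0.15) and 0.32 (SE 0.14, adjusted p = 0.265).

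The interleukin 1 genes had differences among the largest of the module without passing. Il1b (10487597), the secreted interleukin 1 that impairs β-cells, read 8.35, 8.75, 8.40, 9.23 and 8.39 on control arrays and 8.72, 9.13, 8.88 and 8.10 on Pdx-1+/- arrays. It read 9.23, 9.87, 9.43, 9.18 and 10.46 on IKK2-CA arrays, all above Pdx-1+/- arrays, while control array 4 lay above IKK2-CA array 4. The difference was log2 0.93 (SE 0.27, adjusted p = 0.344) and 1.01 (SE 0.26, adjusted p = 0.057). Il1a, the cell-bound interleukin 1, ranged from 7.42 to 9.10 in IKK2-CA, 6.38 to 6.79 in Pdx-1+/- and 5.53 to 7.84 in control islets. It was at log2 1.39 (SE 0.47, adjusted p = 0.483) from Pdx-1+/- islets, the largest difference of the 38 genes, and 1.20 (SE 0.44, adjusted p = 0.186) from control islets.

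Il1rn, the secreted antagonist of the interleukin 1 receptor, was at log2 0.88 from both Pdx-1+/- (SE 0.32, adjusted p = 0.544) and control islets (SE 0.30, adjusted p = 0.153). Its IKK2-CA arrays ran from 5.75 to 7.91 with a median of 6.02, and the other groups from 5.31 to 5.65. Leaving out IKK2-CA array 5 reduced the difference from control to log2 0.50 and its SE to 0.10, and it then passed (adjusted p = 0.0243). In total 9 genes had every IKK2-CA array above every Pdx-1+/- array (1.72% of all genes), namely Tnip1, Tnip3, Traf1, Ptgs2, Il1a, Il1b, Il1rn, Il12b and Ifngr2, and 0 had the reverse (0.712%). Against control islets 5 did so (1.86% of all genes) and 0 the reverse (2.34%).

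Tnf (10450501), the cytokine that itself activates IKK, read 7.68, 7.40, 6.76, 7.80 and 7.22 on control arrays and 7.61, 7.27, 7.15 and 7.39 on Pdx-1+/- arrays. It read 8.10, 7.68, 8.10, 7.44 and 8.60 on IKK2-CA arrays, where array 4 lay inside the range of both other groups. The difference was log2 0.63 (SE 0.23, adjusted p = 0.544) and 0.61 (SE 0.22, adjusted p = 0.167). Il6 (10520452), the acute phase cytokine, read 8.04, 6.74, 5.95, 8.16 and 6.33 on control arrays, 7.16, 7.64, 6.81 and 6.36 on Pdx-1+/- arrays and 7.52, 7.56, 8.15, 7.49 and 8.14 on IKK2-CA arrays. The control arrays spanned over 2 log2 units and held values as high as any IKK2-CA array. Its difference was log2 0.78 (SE 0.41, adjusted p = 0.779) and 0.73 (SE 0.39, adjusted p = 0.405).

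Il15, a survival factor of memory T lymphocytes, lay at log2 0.38 (SE 0.15, adjusted p = 0.624) and 0.39 (SE 0.14, adjusted p = 0.18). Csf1, the macrophage growth factor, was at log2 0.61 (SE 0.27, adjusted p = 0.70) from Pdx-1+/- and 0.39 (SE 0.26) from control islets, and at 0.14 from Pdx-1+/- when Pdx-1+/- array 4 and IKK2-CA array 5 were left out. Tnfsf10, the death ligand TRAIL, was at log2 0.52 (SE 0.25, adjusted p = 0.716) and 0.50 (SE 0.23, adjusted p = 0.309), and at 0.21 from Pdx-1+/- islets with those 2 arrays left out. Csf2, or GM-CSF, read 4.05 to 4.58 on all IKK2-CA arrays and differed by log2 0.14 (SE 0.10) and 0.20 (SE 0.10). The alarmin Il33, which nuclei release on damage, was at log2 0.09 (SE 0.24) and 0.06 (SE 0.22). Il18, a cytokine that inflammasomes release, was the 1 cytokine gene below both groups, at log2 -0.28 (SE 0.13, adjusted p = 0.701) from Pdx-1+/- and -0.22 (SE 0.12, adjusted p = 0.441) from control islets, and it lay at -0.41 from Pdx-1+/- without the intestinal and adipocyte arrays.

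Of the 5 receptor genes all lay above both groups and Ifngr2 rose against control islets. When Pdx-1+/- array 4 and IKK2-CA array 5 were left out, 3 lay above Pdx-1+/- islets and Ifngr1 and Tnfrsf1b lay at log2 -0.03 and -0.02. Ifngr2 (10436865) encodes the signalling chain of the interferon γ receptor. It read 9.57, 9.60, 9.31, 9.40 and 9.48 on control arrays and 9.56, 9.58, 9.42 and 9.76 on Pdx-1+/- arrays. IKK2-CA arrays read 9.92, 9.92, 10.25, 9.80 and 10.55, all above the other groups, array 4 by little. The rise against control was 1.53-fold (log2 0.62, SE 0.13, adjusted p = 0.0219) and 1.42-fold without IKK2-CA array 5 (log2 0.50, adjusted p = 0.026). From Pdx-1+/- islets it was at log2 0.51 (SE 0.13, adjusted p = 0.29). Ifngr1, the ligand-binding chain, was at log2 0.29 (SE 0.23) and 0.21 (SE 0.21).

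Tlr2, which senses bacterial lipoproteins, was at log2 0.50 (SE 0.20, adjusted p = 0.645) from Pdx-1+/- and 0.41 (SE 0.19, adjusted p = 0.326) from control islets, and 0.16 from Pdx-1+/- when Pdx-1+/- array 4 and IKK2-CA array 5 were left out. Tnfrsf1b, the second receptor for tumour necrosis factor, was at log2 0.39 (SE 0.24) and 0.37 (SE 0.23). Tnfrsf9, the co-stimulatory receptor 4-1BB of activated lymphocytes, was at log2 0.77 (SE 0.40, adjusted p = 0.775) and 0.74 (SE 0.38, adjusted p = 0.384). Its IKK2-CA arrays read 6.14, 6.26, 8.72, 6.06 and 7.08, so arrays 3 and 5 again stood apart as for Nos2, this time with array 3 the higher. Without IKK2-CA array 3 its differences were log2 0.30 and 0.27. For further genes that did not pass, leaving out Pdx-1+/- array 4 and IKK2-CA array 5 gave log2 differences from Pdx-1+/- islets of 0.52 for Il1b, 0.48 for Il6, 0.45 for Ptgs2, 0.29 for Birc3, 0.27 for Bcl3 and -0.15 for Cyld.

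For several inducible genes the control arrays differed more among themselves than the group means did. Control arrays 3 and 5 were the lowest pair of controls for 20 of 38 genes. Ier3 read 7.23 and 7.31 on those arrays against 8.57 to 8.85 on the others, Il1a 5.53 and 5.56 against 7.27 to 7.84, and Nfkbiz 9.25 and 9.29 against 10.13 to 10.23. Pdx-1+/- array 4 was the lowest of its group for 26 of the 38 genes. How often these arrays were lowest over all genes was not counted, so both counts are description only. The mean of 10 immediate early genes (Fos, Egr1, Jun and others, a list chosen after these values were seen) was -0.31 and -0.32 on control arrays 3 and 5, -0.35 on Pdx-1+/- array 4 and -0.35 on IKK2-CA array 3, against 0.18 to 0.30 on control arrays 1, 2 and 4. Its part in the differences of the module was not tested.

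Markers of dendritic cells were higher in IKK2-CA islets. Of 12 listed 11 were measured, and 10 lay above Pdx-1+/- islets. Against control islets 8 rose (0.682% of all genes did), and against Pdx-1+/- islets 4 rose (0.0752%). Their mean deviation from each gene's average ran from 0.41 to 1.56 on IKK2-CA, -0.59 to -0.29 on control and -0.51 to -0.22 on Pdx-1+/- arrays, without overlap, and was highest on IKK2-CA array 5. Across the IKK2-CA arrays the order was the same as for the module, with array 4 lowest (0.41). This order was not particular to the dendritic markers, as the T and natural killer cell markers and the B-cell markers shared it. The order differed in the other groups, where control array 1 was the lowest control for the dendritic markers (-0.59) but not for the module. Of 15 macrophage markers 9 lay above Pdx-1+/- and 12 above control islets and 0 passed (limma), with a mean level of 8.23 to 9.30 on IKK2-CA, 8.25 to 8.84 on control and 8.54 to 8.84 on Pdx-1+/- arrays. Of 14 T and natural killer cell markers 12 and 13 lay above the 2 groups and 0 passed, with 4.90 to 5.95 on IKK2-CA, 4.90 to 5.14 on control and 4.76 to 5.24 on Pdx-1+/- arrays. Of 9 B-cell markers 9 and 8 lay above the 2 groups and 0 passed, with 5.14 to 6.71, 5.30 to 6.03 and 5.27 to 6.10 in the same order. IKK2-CA arrays 3 and 5 had the highest mean deviations for the T and natural killer cell markers (0.56 and 0.80). They also had the highest for the B-cell markers (0.94 and 0.98). IKK2-CA array 4 was the lowest of its group for both lists (-0.24 and -0.60). The macrophage markers had another order, with IKK2-CA array 2 (0.16) above array 3 (0.03). The 9 neutrophil markers lay at 4.46 to 4.88 on IKK2-CA, 4.58 to 4.78 on control and 4.63 to 4.83 on Pdx-1+/- arrays. Markers of β-cells were lower in IKK2-CA islets. Among the IKK2-CA arrays their mean deviation was highest on array 4 (0.09) and lowest on array 5 (-1.04). All 11 measured lay below control islets (median -1.16) and 7 fell (1.56% of all genes did), namely Pdx1, Mafa, Slc2a2, Ucn3, G6pc2, Slc30a8 and Glp1r. All 11 also lay below Pdx-1+/- islets (median -0.37), where 0 passed. At an unadjusted p under 0.05 (limma) 2 were lower there, beside 2.69% of all genes. In Pdx-1+/- against control islets the 11 had a median of -0.75 and 0 passed, with 9 lower at that level (3.49% of all genes). What part these cell types had in the module's differences was not tested.

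**Figure D4:**
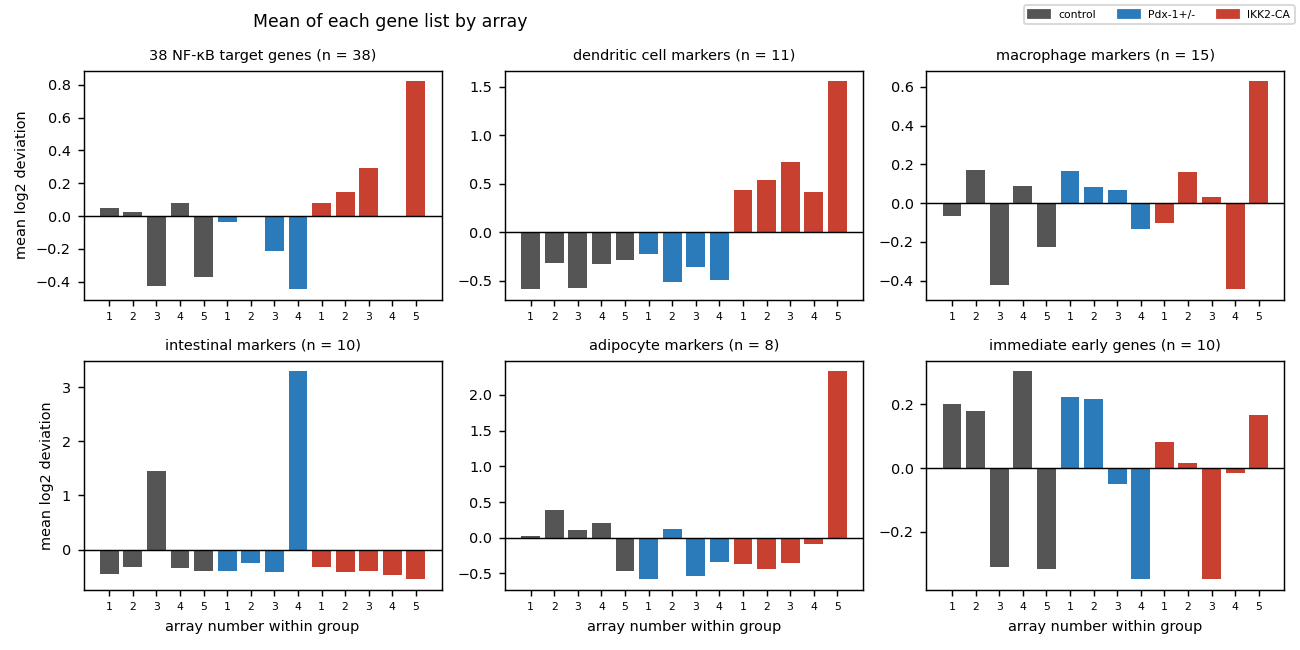
Mean log2 deviation from each gene's average signal (y axis, its own range in each panel) of 6 gene lists on each array (x axis, array number within control, Pdx-1+/- and IKK2-CA). The module and the dendritic and macrophage markers peak on IKK2-CA array 5 (0.82, 1.56 and 0.63), as do the adipocyte markers (2.33), while intestinal markers peak on Pdx-1+/- array 4 (3.29).

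The other genes of the pathway were followed with a list of 60 subunits, kinases, adaptors, receptors and further targets, of which 53 were measured. Against control islets 7 rose (Nfkbie, Vcam1, Ccl5, Ccl22, Cx3cl1, Cd80 and Cd44) and 0 fell, beside 0.682% and 1.56% of all genes. Against Pdx-1+/- islets 2 rose and 0 fell, beside 0.0752% and 0%. The 6 with the largest differences from Pdx-1+/- islets were chemokine, adhesion and acute phase genes. Ccl22, a chemokine gene of mature dendritic cells, rose against Pdx-1+/- (log2 2.23, SE 0.29, adjusted p = 0.0128) and control islets (log2 2.24, SE 0.27, adjusted p = 0.00118). Ccl5, a chemokine gene that draws T cells, rose against both too (log2 1.63, adjusted p = 0.0262, and log2 1.44, adjusted p = 0.00962). Vcam1, a leukocyte adhesion molecule, rose against control (log2 1.62, adjusted p = 0.0162) and was at log2 1.33 from Pdx-1+/- islets (adjusted p = 0.235). Lcn2, Cxcl10 and Icam1 lay 1.44, 1.39 and 1.20 above Pdx-1+/- and 1.40, 1.17 and 1.04 above control islets on the log2 scale without passing. The median difference of the 53 genes was 0.20 from Pdx-1+/- and 0.19 from control islets. Of them 43 and 41 lay above 0, beside 45% and 46.4% of all genes. In Pdx-1+/- against control islets 0 of the 53 passed and the median was -0.01. At an unadjusted p under 0.05 (limma) 1 was higher and 0 lower, beside 1.23% and 3.49% of all genes.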

How the data were processed

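The deposited table holds log2 signals for 35556 transcript clusters on 14 arrays, which the authors made with RMA, an array summary method, using Affymetrix Expression Console, per the submitters' processing notes and the series' design text. No source used here gives the software version, and the log base was read from the values. Of the 23410 clusters in the array's gene table, 21789 with 1 symbol were kept, 1621 with several were not, and of several clusters for a gene the one with the highest mean was used. No further normalization or filter was applied. Genes were tested with limma 3.58.1 in R 4.3.3 (lmFit, eBayes, 3 group means, 11 residual degrees of freedom) with Benjamini-Hochberg adjustment over all 19938 genes. The procedure was tested on simulated data. The members, gene lists and left-out arrays were chosen with earlier results of these data known. All 40 members are named, and those with an unadjusted p under 0.01, plus Tnf, Il6, Nos2, Tnfaip3 and Nfkbiz, get every array's value. Promoter sequences are those of RefSeq. Replicate numbers recur in the groups but same-number arrays did not deviate together (correlations from -0.39 to 0.36), so arrays were not paired. Alternatives were other scalings, variance models, filters, cluster rules, array weights, a replicate block and left-out arrays. The number of arrays limits the precision.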

Additional observations from a re-analysis of the deposited data

Results flagged for a closer look

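Single arrays far from the rest of their group by Dixon's test at the 5% level were found in 7 of 114 combinations of gene and group, where chance alone flags about 1 in 20. On IKK2-CA array 5, Il1rn read 7.91 against 5.75 to 6.18 on the other IKK2-CA arrays, and Birc2 read 8.38 against 7.42 to 7.59. On Pdx-1+/- array 4, the array with intestinal markers, Ptgs2 read 8.84 where arrays 1 to 3 read 9.38 to 9.47, Tlr2 read 7.43 against 8.02 to 8.07, and Il1rn read 5.34 against 5.52 to 5.55. Csf2 read 4.05 on IKK2-CA array 4 against 4.43 to 4.58, and Tnfrsf9 read 5.90 on control array 1 against 6.13 to 6.21.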

How the results depend on the processing

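The number of genes past the threshold in IKK2-CA against control islets, 4 of 38, depended on single arrays and on the model. It was 0 in a fit of the 2 groups compared and 0 with the replicate number as a block, 2 when every transcript cluster was tested, 8 with array weights, 7 leaving out Pdx-1+/- array 4 and IKK2-CA array 5, and 2 without those and control array 3. Leaving out 1 array at a time gave 0 to 7, with 0 without control array 3, 4 or 5 or IKK2-CA array 3, 1 without control array 1, 2 without IKK2-CA array 2 and 7 without IKK2-CA array 4. Against Pdx-1+/- islets the count of 0 became 2 with array weights and 1 leaving out Pdx-1+/- array 4 and IKK2-CA array 5, and 0 to 2 with 1 array left out (1 without IKK2-CA array 5 and 2 without IKK2-CA array 4). In the other settings it was 0, as it was in every setting of Pdx-1+/- against control islets. The causes were not tested. Over all genes the calls numbered 15, 448 and 19 in these comparisons, and 1 to 66, 120 to 1431 and 9 to 73 under the alternatives, in the order IKK2-CA against Pdx-1+/-, against control, and Pdx-1+/- against control. Over all settings the median difference of the 38 genes ranged from 0.14 to 0.50 against Pdx-1+/-, from 0.15 to 0.44 against control and from -0.10 to 0.07 in Pdx-1+/- against control islets. Tnip1 and Ifngr2 kept a positive difference from control in all 21 settings and passed in 13 and 14. Tnip3 passed in 9 of 20 and Il12b in 10 of 21. Tnip3, Traf1, Il23a and Csf2 could not be tested without the 30% dimmest genes. Of the IKK2-CA arrays 0 correlated best with their own number, so the block is no pairing.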
